A study of Brassica rapa with 28 samples.

Results

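Leaves of BrphyB-3 mutant and wild-type Brassica rapa were compared at the stage labelled 24hr, when 1 leaf of each plant had been wrapped in foil for 24 h and the leaf that was sampled had stayed uncovered. The comparison uses the 7 libraries that carry this label, of 28 in the series: 3 from mutant pools, numbered 3 to 5, and 4 from wild-type pools, numbered 3 to 6. Both genotypes carry the strain label R-o-18, a Brassica rapa line, and per the labels each pool joined leaf punches of 28 mm2 from 3 plants. The plants had been 3 weeks old at the pre sample 24 h earlier, which came from the same leaf, grew at 20 °C under 16 h light and 8 h dark, and were sampled 5 h after lights on. The other stages were dark, taken from the covered leaf when it was unwrapped at 72 h, and recovery, from that leaf at 96 h. The mutant is 1 line from a reverse-genetics collection. Its crossing history and the other variants it may carry are not given in the sources used here.

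Phytochrome B is a red-light receptor of plants. Red light turns it into its active form, which moves to the nucleus and lowers the amount and activity of the PIF transcription factors, and far-red light or darkness lets the inactive form return. Plants that lack it show parts of the shade and darkness responses in the light, among them long stems and pale leaves, and in detached or shaded leaves of Arabidopsis the same pathway bears on how fast chlorophyll is lost.

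The deposited gene IDs matched 0 entries of the RefSeq gene table, so genes are given by ID, no gene function is assigned, the phytochrome B gene itself was not used to check the labels, and leaf marker genes were not read. An ID such as BraA03000360 names a series (A03) and a number within it. Genes from BraA03000001 to BraA03000424, called the A03 run here, were reported apart from all others because an earlier look at these libraries had found many of them lower in the mutant. The run was therefore chosen with its values known, and its counts and medians are descriptions without a test. Of 48826 IDs in the table, 24992 passed the filter on low counts and were tested. They included 253 of the run, 59.7% of its IDs and 1.01% of all tested genes.

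Total counts at 24hr were 9748773 to 13233390 in the wild type and 9690967 to 14159657 in the mutant. Whole-transcriptome profiles did not separate by genotype. The correlation of log2 CPM was 0.947 to 0.975 between wild-type libraries, 0.912 to 0.949 between mutant libraries and 0.916 to 0.966 across genotypes, and the first principal component, with 36.0% of the variance, mixed the groups. Wild-type pool 3 stood apart from the other wild-type libraries. It lay at -35.1 on the first component, where pools 4 to 6 lay at 25.3 to 41.8, and at -74.7 on the second (21.5% of the variance), where they lay at -23.0 to 17.8. The mutant pools were spread as well. Mutant pools 3, 4 and 5 lay at -98.5, 52.4 and -23.8 on the first component and at 9.5, 10.1 and 64.6 on the second. Genes of the A03 run took 0.868% of the counts in wild-type pool 3, against 1.23%, 1.24% and 1.12% in wild-type pools 4, 5 and 6, and 0.795%, 0.839% and 0.772% in mutant pools 3, 4 and 5. For the run, the number of calls and the median are also given without wild-type pool 3. All other values of the run include it. In bulk leaf tissue, fewer cells that use a gene and less RNA per cell cannot be told apart.

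Few genes passed the test between genotypes in the uncovered leaf. At 24hr 36 genes, 0.144% of those tested, passed an adjusted p (Benjamini-Hochberg) under 0.05 (edgeR, quasi-likelihood F). Of these, 18 (0.072%) had more counts in the mutant and 18 (0.072%) fewer. The unadjusted p was under 0.05 for 1902, where chance alone would give a share of 0.05 of the tested genes. Outside the run 18 genes (0.0728%) were higher and 8 (0.0323%) lower, together 0.105% of 24739 tested, and inside it 10 were lower and 0 higher, 3.95% of 253. At 24hr, libraries with the same pool number deviated together from their group means, less clearly so at other stages. The fit with pool number as a replicate block is therefore given beside the main one. With the block 89 genes (0.356%) passed, 42 higher (0.17%) and 21 lower (0.0849%) outside the run and 26 lower (10.3%) inside it. These 89 included 35 of the 36. The overlap was smaller in fits on fewer libraries. With only the compared groups, 24 genes passed, 11 of them among the 36, and with a block within the 24hr libraries 40 passed, 15 of them among the 36. The DESeq2 Wald test called 110 genes (0.44%), 37 inside the run (14.6%) and 73 outside (0.295%). With the letter that opens each sample description as a term, 97 (0.388%) passed, 17 of them inside the run (6.72%) and 80 outside (0.323%). Of those outside, 52 (0.21%) were higher and 28 (0.113%) lower. Only letters a and d, of pools 3 and 5, occurred in both genotypes. Letter b marked only wild-type pool 4, e only wild-type pool 6 and c only mutant pool 4. The genotype difference common to all stages thus rests on pools 3 and 5 in that fit. Leaving out 1 pool at a time gave from 9 calls, without wild-type pool 5, to 65, without mutant pool 4. The sizes differed by set. Genes higher in the mutant had log2 differences from 1.59 to 6.05, apart from 1 with no wild-type count, and a median of 3.18. Genes lower in the mutant ranged from -2.91 to -1.06 outside the run and from -1.43 to -0.82 inside it. Over all genes tested the median was 0.01.

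Most genes that were higher in the mutant had low counts in uncovered wild-type leaves. Of the 18, 2 had a wild-type mean of at least 10 CPM, 8 had one under 1 CPM, and 3 had at most 3 counts in every wild-type library. Choosing genes as higher in the mutant favours low wild-type levels. The shares over all tested genes are not given here, so these counts are no trait of the set. For BraA05000169, whose function is not given by the files, the wild-type libraries of pools 3, 4, 5 and 6 held 0.447, 0.332, 0.0832 and 0.199 CPM, from 1 to 4 counts each. The mutant libraries of pools 3, 4 and 5 held 12.1, 11.8 and 29.3 CPM, from 116 to 420 counts. All 3 mutant libraries thus lay far above all 4 wild-type libraries, and the highest, pool 5, was over double either of the others. The log2 difference was 6.05 (SE 0.63, edgeR quasi-likelihood, adjusted p by Benjamini-Hochberg 2.36e-06). Since the wild-type counts were so low, this size depends on the prior count. It was 5.33 with a prior count of 2, and the ratio of summed counts was 73.7 with a 95% interval of 40.9 to 148, which covers counting error only.

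BraA09006975, also without a function in the files, showed a like pattern in these 7 libraries. In the wild type it had 0, 0.083, 0.333 and 0.498 CPM in pools 3, 4, 5 and 6, and in the mutant 6.30, 20.5 and 16.3 CPM in pools 3, 4 and 5. The groups did not overlap, which the naming rule required, although mutant pool 3 was lower than the others. The log2 difference was 5.88 (SE 0.73, edgeR quasi-likelihood, adjusted p by Benjamini-Hochberg 8.77e-05), and 5.10 with a prior count of 2. The ratio of summed counts was 60.7, with a counting interval of 32.7 to 127. One further gene, chosen after its values were seen, had 0 counts in all 4 wild-type libraries and 3.73 to 13.7 CPM in the mutant, mean 8.43 ± 5.03 (SD, n = 3). Against a floor of 3 counts per library, 0.335 CPM, it was at least 25.1-fold higher, and the median of the 18 genes is still 3.18 with this gene set at its bound.

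Not all mutant pools shared every one of these differences. In 15 of the 18 genes all 3 mutant libraries lay above all 4 wild-type libraries, a pattern found in 3.24% of all tested genes. In each of the other 3 genes the library of mutant pool 4 lay within the wild-type range while those of pools 3 and 5 lay above it. In the gene with the lowest adjusted p of these 3, the mutant libraries held 20.8, 0.916 and 21.8 CPM in pools 3, 4 and 5, against 0.581 to 1.75 CPM in the wild type. Without mutant pool 4, 55 genes passed outside the run in place of 26, 37 of them higher in the mutant.

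**Figure D1:**
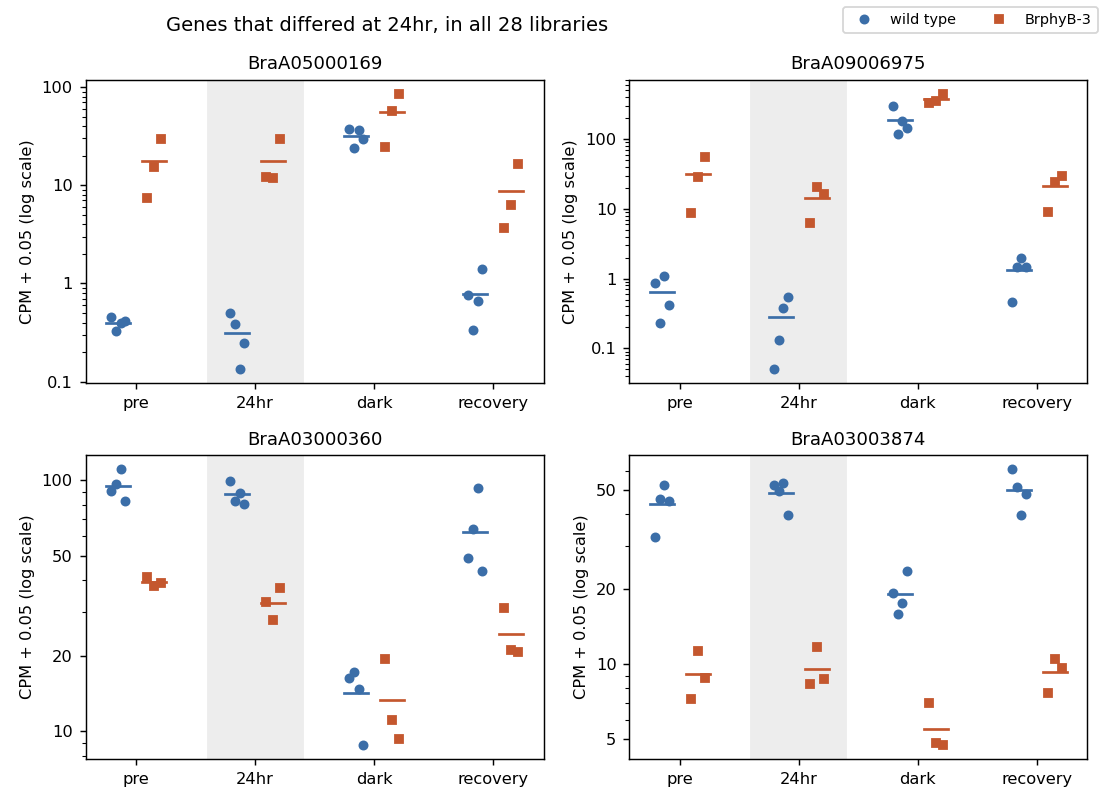
Level of the 4 named genes in each of the 28 libraries, as CPM + 0.05 on a log axis, by stage. Each point is 1 library (circles wild type, squares BrphyB-3) and each bar the group mean. In the shaded 24hr stage the groups do not overlap for any of the 4 genes, which the rule for naming them required. At dark the genotypes lie closer for BraA05000169, BraA09006975 and BraA03000360 than at 24hr.

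Of the 18 genes that were higher in the uncovered mutant leaf, 13 were also higher in covered than in uncovered wild-type leaves. Darkness, leaf and time cannot be told apart in that contrast. The dark and pre libraries did not enter the 24hr contrast itself, although they came from the same plants and shared in the estimate of the spread. By edgeR's quasi-likelihood test (adjusted p under 0.05) 13 passed as higher at dark than at pre and 2 as lower. Among all genes tested 29.1% were higher and 30.3% lower. The 18 were chosen in a contrast that favours genes low in uncovered wild-type leaves, and such genes can hardly fall further, so the split is in part fixed by that choice and nothing is read from its distance to all genes. The median log2 change of the 18 was 1.69, against -0.01 over all genes. In the mutant, 7 of the 18 were higher at dark than at pre and 4 lower, against 26.6% and 28.9% of all genes, with a median log2 change of 0.17.

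The 2 named genes of this set show the course. BraA05000169 in wild-type leaves went from 0.348 ± 0.0548 CPM (SD, n = 4) at pre to 31.6 ± 6.29 CPM at dark. In mutant leaves it went from 17.4 ± 11.2 CPM (SD, n = 3) to 55.8 ± 30.8 CPM. At dark its genotype ranges overlapped, 23.8 to 37.1 CPM in the wild type and 24.3 to 85.9 CPM in the mutant, with a log2 difference of 0.81 (SE 0.41, edgeR quasi-likelihood, adjusted p 0.51). BraA09006975 went from 0.598 ± 0.389 to 186 ± 81.7 CPM in wild-type and from 31.1 ± 23.8 to 377 ± 63.6 CPM in mutant leaves, and its log2 difference at dark was 1.02 (SE 0.46, adjusted p 0.433).

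For both genes the log2 change from pre to dark was smaller in the mutant, which started from a higher level. In CPM the means of both genes rose by more in the mutant. The log2 difference between the changes was -4.83 for BraA05000169 (SE 0.80, edgeR quasi-likelihood, adjusted p 0.0397) and -4.75 for BraA09006975 (SE 0.84, adjusted p 0.0489). They were 2 of the 3 genes, 0.012% of those tested, that passed this test. No 24hr library entered the contrast itself, but all 28 libraries shared in the estimate of the spread. Both genes were chosen for their excess in the mutant at 24hr, and at pre, in the same leaf, their log2 differences were 5.64 and 5.76. The sign of the contrast is thus in part fixed by that choice. The wild-type pre libraries held 2 to 3 counts of BraA05000169 and 2 to 9 of BraA09006975, and both calls were lost without any 1 of the 4 wild-type pools, without mutant pool 4 or under the older edgeR procedure, with adjusted p-values up to 0.27. That of BraA09006975 was also lost without mutant pool 5. At recovery both genes were again higher in the mutant, with log2 differences of 3.51 (SE 0.56, adjusted p 0.00259) and 3.99 (SE 0.57, adjusted p 0.00171).

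Outside the run, the 8 genes that were lower in the mutant included well detected ones. Their wild-type means at 24hr ran from 2.73 to 189.9 CPM, and 6 of the 8 had at least 10 CPM. Choosing genes as lower favours those well detected in the wild type, and the share over all tested genes is not given here. BraA03003874, which belongs to the A03 series but lies far beyond the run, had 52.2, 49.7, 53.4 and 39.7 CPM in wild-type pools 3, 4, 5 and 6. In mutant pools 3, 4 and 5 it had 8.29, 11.7 and 8.64 CPM. The lowest wild-type library was thus over 3 times the highest mutant library, and the replicates of each genotype lay close together. The log2 difference was -2.36 (SE 0.22, edgeR quasi-likelihood, adjusted p by Benjamini-Hochberg 2.36e-06), which is 0.195 of the wild-type level.

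This gene was lower in the mutant at every stage, with log2 differences of -2.28 at pre, -1.80 at dark and -2.43 at recovery and adjusted p-values of 5.16e-06, 0.000604 and 1.47e-06 (edgeR quasi-likelihood). At dark the wild-type mean was 19.1 ± 3.32 CPM (SD, n = 4) and the mutant mean 5.46 ± 1.26 CPM (SD, n = 3). Of the 8 genes, 7 had a negative difference at pre, 7 at dark and 8 at recovery, and 5, 2 and 5 passed there in that direction. Among all tested genes, 0.096%, 0.104% and 0.144% passed as lower at these stages. All 8 also passed with the replicate block, where 0.0849% of the tested genes outside the run passed as lower. That fit uses the same libraries, so it is not independent.

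**Figure D2:**
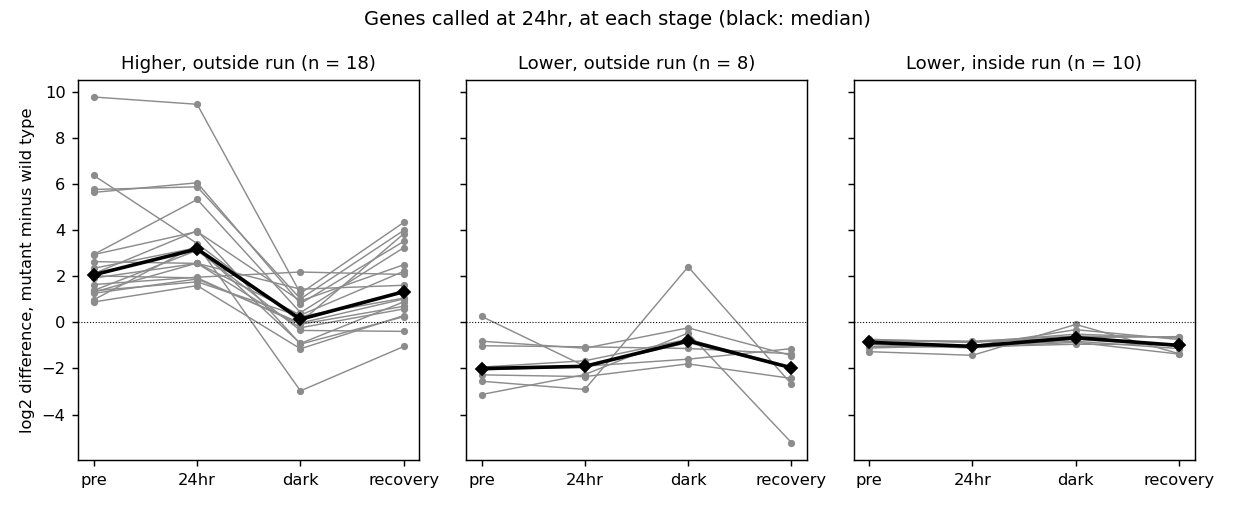
Log2 difference of mutant against wild type (y axis) at the 4 stages for the 36 genes called at 24hr, split into 18 higher, 8 lower outside the run and 10 lower inside it. Grey lines are genes and black diamonds the median of each set. The median of the higher genes is 3.18 at 24hr and 0.13 at dark, while that of the run genes is -1.04 at 24hr and -0.67 at dark.

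The sets of called genes were followed at the other stages, where libraries came from the same plants. The 18 higher genes had a positive difference at pre in 18, at dark in 10 and at recovery in 16, and 7, 2 and 5 of them passed there as higher. Among all tested genes 0.04%, 0.096% and 0.064% passed as higher at these stages. Their median log2 differences there were 2.06, 0.13 and 1.33. Of the 18, 11 passed at no other stage. The 10 run genes were below the wild type at all 3 other stages, with median log2 differences of -0.87, -0.67 and -1.0. Of them 5, 1 and 6 passed, against 6.72%, 1.19% and 5.93% of all tested run genes. A larger difference at 24hr than elsewhere is partly fixed by choosing the genes there.

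Whether the genotype difference itself moved from pre to 24hr, within the uncovered leaf, was tested as the genotype by stage contrast. By edgeR's quasi-likelihood test 0 of 24992 genes passed, with 304 at an unadjusted p under 0.05, and the DESeq2 Wald test called 1. The count of 304 is below the share of 0.05 of tested genes that chance alone would give. For the named genes the log2 difference between the changes was 0.42 (SE 1.12) for BraA05000169, 0.11 (SE 0.91) for BraA09006975, -0.16 (SE 0.35) for BraA03000360 and -0.08 (SE 0.29) for BraA03003874, each with an adjusted p of 1. The SEs of the first pair leave room for changes of several-fold. Within a genotype, 24hr against pre gave 0 genes in each by edgeR, with 654 wild-type and 856 mutant genes at an unadjusted p under 0.05, and by DESeq2 1 and 0. The counts of 654 and 856 were also below that share, so nothing is read from them. Pre and 24hr samples came from the same leaves, but the main edgeR fit held no term for the pool, so this pairing was not used. The replicate block also gave 0 genes for each of these contrasts, but its number joins different plants of the genotypes. Whether a fit that uses the pairing would call genes was not tested.

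Inside the A03 run, the called genes had a median log2 difference of -1.04, against -1.91 for the lower genes outside, with overlapping ranges and no test between them. Most of the other run genes had a negative difference too. BraA03000360, the run gene picked by the naming rule, had 99.5, 82.4, 89.2 and 80.4 CPM in wild-type pools 3, 4, 5 and 6 and 32.6, 27.8 and 37.2 CPM in mutant pools 3, 4 and 5. The groups were well apart, where the naming rule required no overlap, and each was tight. The log2 difference was -1.43 (SE 0.26, edgeR quasi-likelihood, adjusted p by Benjamini-Hochberg 0.0143), which is 0.371 of the wild-type level. The call was lost without wild-type pool 4 or 5 or mutant pool 4 or 5, with adjusted p-values from 0.0522 to 0.0784, while the log2 difference was -1.55 to -1.32 over all alternatives.

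At dark the level of BraA03000360 was low in both genotypes, 14.2 ± 3.79 CPM (SD, n = 4) for wild type and 13.2 ± 5.40 CPM (SD, n = 3) for mutant, and the log2 difference was -0.09 (SE 0.26, adjusted p 0.953). The other 9 called run genes had log2 differences at 24hr of -1.11 to -0.82. The 10 together had wild-type means of 19.8 to 320.2 CPM and no overlap between the genotypes. With the replicate block, fitted to the same libraries and hence not independent, 9 of the 10 passed, against 10.3% of all tested run genes.

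Of the 253 tested run genes, 233 (92.1%) had a negative difference at 24hr, against 48.0% of the genes outside. The median log2 difference was -0.66 inside and 0.01 outside, and its quartiles inside the run were -0.95 and -0.36. In 98 run genes (38.7%) all 3 mutant libraries were below all 4 wild-type libraries, against 4.03% of all tested genes, and in 1 all were above. By edgeR 0 run genes were higher in the mutant, also at an unadjusted p under 0.05, where 112 were lower, and DESeq2 called 1 higher (0.395%) and 36 lower (14.2%). The run medians in the pre, dark and recovery libraries of the same plants were -0.56, -0.66 and -0.65.

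**Figure D3:**
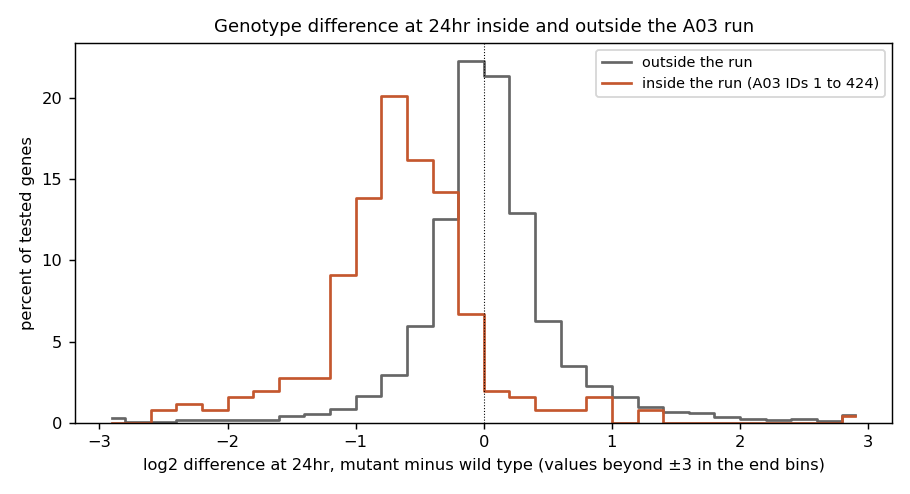
Distribution of the log2 difference at 24hr (x axis, bins of 0.2, with values beyond ±3 in the end bins) as percent of the tested genes inside (253) and outside (24739) the A03 run. The median lies at -0.66 inside the run and at 0.01 outside it.

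The values changed at the end of the run, which was set with these values known. The last 10 tested genes inside it, from number 405 on, had a median log2 difference of -0.77, and the first 10 beyond it, numbers 425 to 438, had 0.02. Split into 4 stretches of 106 IDs, the run had medians of -0.39, -0.70, -0.79 and -0.78, and the next 4 such stretches had 0.06, 0.02, 0.06 and 0.02. Of the 10 calls, 0 lay in the first stretch and 5, 2 and 3 in the others. All 3 mutant libraries lay below all 4 wild-type libraries in 13% of the tested genes of the first stretch. In the others this share was 45.8%, 43.9% and 60%. The whole table was also cut into windows of 50 consecutive tested IDs. The 5 windows inside the run had medians from -0.84 to -0.41, while the 489 windows outside ranged from -0.20 to 0.20.

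The first stretch of the run differed from the rest in how the wild-type pools lay. For genes with numbers 1 to 106, the median log2 deviation from the wild-type mean at 24hr was -0.43 in wild-type pool 3, 0.28 in pool 4, 0.27 in pool 5 and -0.01 in pool 6. In mutant pools 3, 4 and 5 it was -0.38, -0.39 and -0.45. Wild-type pool 3 thus lay within the range of the mutant pools, pools 4 and 5 lay highest, and pool 6 between. In the rest of the run the wild-type pools 3 to 6 had -0.13, 0.09, 0.09 and -0.07 and the mutant pools 3 to 5 had -0.74, -0.65 and -0.77, so that all mutant pools were below all wild-type pools. Outside the run the library medians lay between -0.02 and 0.01.

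**Figure D4:**
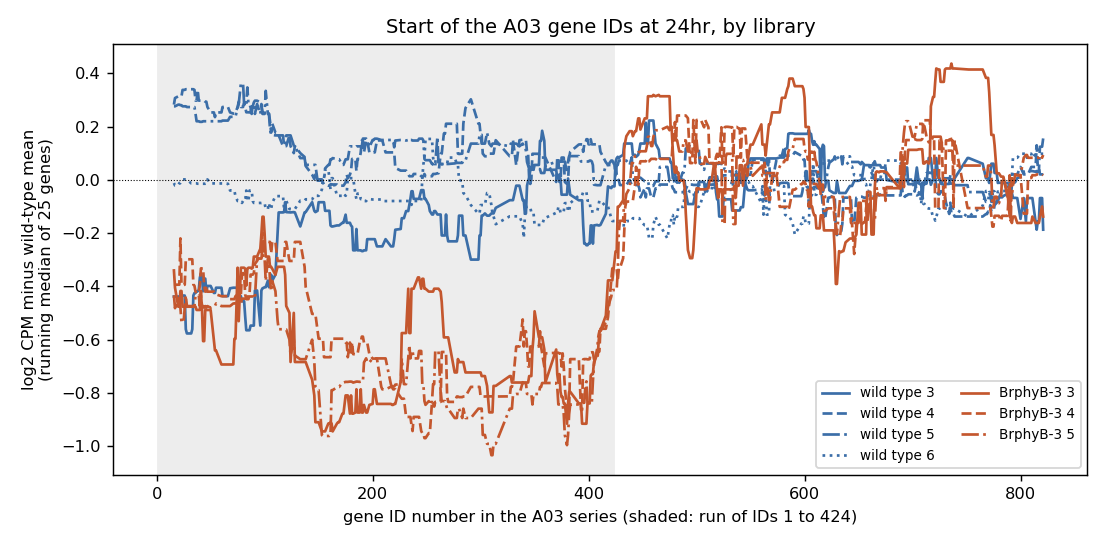
Running median, over 25 tested genes, of log2 CPM minus the wild-type mean (y axis) along the ID numbers of the A03 series (x axis) in the 7 libraries at 24hr. Blue lines are wild-type and red lines BrphyB-3 pools, and the shaded area is the run. Wild-type pool 3 lies with the mutant pools over the first 106 IDs, and the genotypes meet beyond the run.

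At each of the 4 stages, in libraries of the same plants, wild-type pool 3 was lowest over this stretch, pool 6 next, and pools 4 and 5 highest. Over the 4 stages, the median of numbers 1 to 106 was between -0.63 and -0.42 in wild-type pool 3, between -0.22 and -0.01 in pool 6, between 0.08 and 0.28 in pool 4 and between 0.27 and 0.52 in pool 5. In the mutant pools it was between -0.49 and -0.24. Gene by gene at 24hr, wild-type pool 3 was the lowest of the 4 wild-type libraries for 50 of 77 genes (64.9%) in this stretch, for 44.8% in the rest of the run and for 29.7% outside it. Pool 4 was the lowest for 5.19% in this stretch, against 20.9% outside.

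The spread among wild-type pools was then taken for every window of 50 tested IDs, as the range of the pool values averaged over the 4 stages. It was 0.27 to 0.86 in the 5 windows inside the run, and 0.01 to 0.25 in the 489 windows outside, with a median of 0.07. Among the mutant pools the range was 0.02 to 0.12 in the run windows and had a median of 0.08 outside. The wild-type spread was thus larger in each of the run windows than in any other window, while that of the mutant was not. At 24hr alone, the first 2 run windows had the largest wild-type ranges, 0.72 and 0.59, and the other 3, at 0.25 to 0.31, lay within the range of windows elsewhere. Without wild-type pool 3, 19 run genes passed at 24hr in place of 10, and the run median was -0.70. The part of this spread in the difference between genotypes was not tested.

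**Figure D5:**
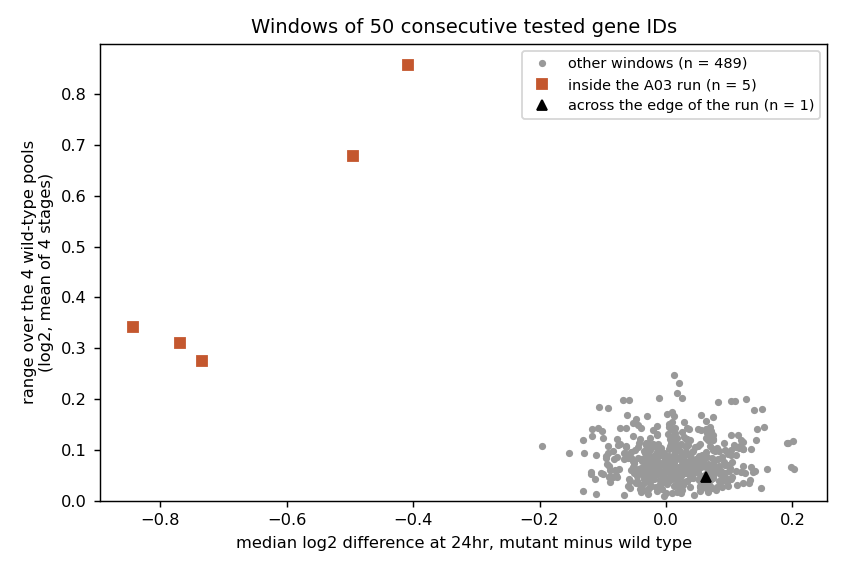
Each point is a window of 50 consecutive tested IDs. The x axis is the median log2 difference of mutant against wild type at 24hr, and the y axis the range over the 4 wild-type pools of the window's median log2 deviation, averaged over 4 stages. The 5 windows inside the A03 run (squares) lie at -0.84 to -0.41 and at 0.27 to 0.86, apart from the 489 others, and 1 window crosses the edge of the run (triangle).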

How the data were processed

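The authors deposited raw counts per gene ID for 28 libraries, 4 wild-type and 3 mutant pools at 4 stages, with no normalization. Poly(A) RNA was sequenced as single reads of 80 bases, per the labels' protocols. The submitters' processing notes name bcl2fastq 2.17.1.14, Trimmomatic 0.36, Bowtie2 and HTSeq. Genome build, annotation and strand setting are not given in the sources used here, so counts of overlapping, antisense or near-identical genes are uncertain. It had 0 entries without a gene ID and 0 columns without a sample.

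In R 4.3.3, edgeR 4.0.16 filtered the counts (filterByExpr), scaled them by TMM and fitted 8 group means to all 28 libraries (glmQLFit with legacy = FALSE). This fit held no term for the pool, although libraries of a pool at different stages came from the same plants. Contrasts were tested by edgeR's quasi-likelihood F test, with Benjamini-Hochberg adjustment over 24992 genes. SEs are the log2 difference divided by the square root of F, hence approximate. CPM are counts scaled to each library's total after TMM, and library deviations use log2 CPM with a prior count of 2. The code was tested on simulated data.

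The members, the run and most choices were made with earlier results of these data known. Named genes had an adjusted p under 0.05 at 24hr, a mean of at least 10 CPM in a group and no overlap between groups. The 2 largest rises and the largest fall inside and outside the run were taken. Alternatives were DESeq2 1.42.0, RLE scaling, no filter, only the compared groups, a replicate block, the letter that opens each sample description (a to e), removal of the run, a prior count of 2 and leaving out each pool. An older edgeR procedure, a block within the 24hr libraries and the contrasts of dark with pre were added after seeing the data. Library pairs differed by a chi-square of at least 9.21 per gene, where counting noise gives about 1.

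Same-numbered pools of the 2 genotypes hold different plants. At 24hr their deviations from the group means correlated across genes by 0.49, 0.273 and 0.3 for numbers 3, 4 and 5, against -0.282 to 0.16 for other pairs. All 3 exceeded 0.1, so the number was taken as a pairing seen in the data. The labels do not say what it marks. Deviations from a group mean cancel out within each genotype, which in part pushes the other pairs to negative values. The pairing was also read from the same 24hr values that the block fit used. At dark the correlations for numbers 3, 4 and 5 were -0.0519, 0.243 and 0.0899, against -0.435 to 0.408 for other pairs. At pre they were 0.313, 0.137 and 0.343, against -0.348 to 0.234. At recovery they were 0.105, 0.529 and 0.142, against -0.437 to 0.229.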

Additional observations from a re-analysis of the deposited data

Results flagged for a closer look

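For 2 genes the step from the pre to the dark stage was not equal in mutant and wild type by a test of the difference itself. The log2 difference of the changes was -4.83 for BraA05000169 and -4.75 for BraA09006975, with adjusted p-values of 0.0397 and 0.0489 (edgeR quasi-likelihood, Benjamini-Hochberg). Over 15 alternatives they ranged from -4.95 to -4.25 and from -5.27 to -4.15, with adjusted p-values up to 0.27 for both, and 9 and 8 of the alternatives kept the call. In 20 sets of 4 wild-type libraries, for the named genes and the run median at each stage, 0 had a library far from the others, where chance gives about 1 in 20. The sets reuse the same 4 pools, and with 4 values only an extreme library is flagged. The wild-type pools are thus not shown to be alike in the run, where their spread over the 4 stages was larger than elsewhere.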

How the results depend on the processing

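The replicate block gave 89 calls at 24hr, 26 inside and 63 outside the run, and the letter of the sample description gave 97, 17 and 80. The DESeq2 Wald test gave 110, 37 and 73, and 1 for genotype by stage. The older edgeR procedure gave 22, 6 and 16, all among the 36. Without a filter 6 genes passed inside the run and the median outside was 0. With only the compared groups 3 of 24 calls lay inside, and a block within the 24hr libraries gave 3 of 40, with an outside median of 0.0239. Removing the run IDs left 21 calls, in part because those IDs held 10. RLE scaling changed no count by over 1.5 times. The cause of the other shifts was not tested.

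Every pool mattered to the counts. Without wild-type pools 4, 5 and 6 there were 13, 9 and 15 calls, of which 1, 1 and 3 lay inside the run and 12, 8 and 12 outside. Without mutant pools 4 and 5 there were 65 and 11, with 55 and 11 outside. Inside the run, counts went from 0 without mutant pool 5, where 87 genes had an unadjusted p under 0.05 in edgeR and all pools gave 37 by DESeq2, to 19 without wild-type pool 3, and mutant pool 3 left 4. Of the 36 calls, 6 passed in all 7 of these fits, 0 of them inside the run, and 36 kept their sign. The run median stayed between -0.71 and -0.56 and the median outside between 0 and 0.0284. With 3 or 4 pools a group, these counts show how many genes the spread lets pass, not how many differ.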

Other observations

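The 26 calls outside the run were scattered over the ID series. Each of the 10 series A01 to A10 held between 1 and 4, and the unplaced IDs held 0 of 234 tested genes. The median log2 difference per series lay between 0.002 and 0.045. Outside the run, 1088 of 24739 tested genes were higher and 702 lower in the mutant at an unadjusted p under 0.05. Chance alone would give a share of 0.05 over both directions, so many of these may not differ. No gene had 0 counts in all 3 mutant libraries and over 3 in every wild-type library at 24hr, while 2 genes had the opposite pattern, 1 of them called. Genes of the run took 1.12% ± 0.173 (SD, n = 4) of wild-type counts and 0.802% ± 0.0341 (SD, n = 3) of mutant counts at 24hr.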
